A study of Mus musculus with 4 samples.

Results

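Neutrophils were examined in single-cell RNA-seq (scRNA-seq) of MC38 tumors, which grow from a mouse colon adenocarcinoma line implanted under the skin of C57BL/6 mice. RAC1, a small GTPase, was wild-type (WT) in the tumor cells of some mice, and in others had the A159V substitution, which CRISPR-Cas9 had put into both copies of the endogenous gene in 1 clone. Treatment was with anti-PD1, an antibody that blocks this T cell checkpoint receptor, or with isotype IgG. The 4 groups, with 1 library each, were WT tumors under either treatment (WT IgG, WT anti-PD1) and A159V tumors likewise (A159V IgG, A159V anti-PD1). Values given in a row without names follow that order, and in a pair IgG comes before anti-PD1. The neutrophils belong to the host and carry no edit, so the genotype in a group's name is that of the tumor cells around them. Without replicates the groups could not be tested against each other, and the 95% intervals below describe counting error alone.

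The members were chosen by their RNA counts from barcodes with more than 200 genes, a low minimum because neutrophils hold little RNA. A barcode was taken when it had at least 5 unique molecular identifiers (UMIs) of S100a8 and S100a9 together, at least 2 of Csf3r, Cxcr2 and Retnlg together, and 0 of C1qa, Ly6c2, Cd3d, Cd3e, Cd3g and Hmga2. This left 571 of 33107 barcodes, with 57 of 7772 (IgG) and 261 of 7385 (anti-PD1) in WT tumors and 91 of 8659 and 162 of 9291 in A159V tumors. The exclusion genes removed 17 of 74, 73 of 334, 39 of 130 and 45 of 207 barcodes that had passed the other thresholds, and Ly6c2, a monocyte gene, was present in 14, 56, 33 and 35 of those. At the S100a8 and S100a9 threshold, 0, 12, 0 and 3 members had exactly 5 UMIs, and 0, 13, 1 and 2 barcodes with 4 UMIs stayed outside.

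Neutrophils are short-lived granulocytes made in the bone marrow, where they load granules with proteases and antimicrobial proteins in an order that marks their age. They leave the blood along gradients of CXCR2 ligands, and in tissue they transcribe cytokines and chemokines under NF-κB and respond to interferon. In tumors they have been described in states that range from blood-like cells, rich in S100a8, S100a9 and Retnlg, to longer-resident cells that transcribe chemokines and genes of the response to low oxygen.

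The neutrophils were shallow next to the rest of each library. Their median depth was 1253 and 1585 UMIs in WT tumors and 935 and 1234.5 UMIs in A159V tumors, against medians of 3294.5 to 4132 UMIs for the other barcodes, and they held 79706, 521586, 118400 and 283634 UMIs in total. The shallowest neutrophils held 639, 521, 506 and 557 UMIs, and the other barcodes began at 500 to 502 UMIs. No barcode at or under 200 genes met the other thresholds of the rule. Any neutrophil under 500 UMIs thus lies outside these counts and the shares below. Barcodes over 5000 UMIs stood apart. There were 0, 9, 1 and 3 of them, they held 19.7%, 21.2% and 19.3% of the neutrophil UMIs in the last 3 libraries, and each of the 13 also had at least 10 UMIs of a marker list of another cell type. Their part in a result was read by leaving them out, and values without them are given as such. The WT anti-PD1 library differed in its other barcodes as well: 0 of them met the gate for tumor cells, against 467 to 866 in the other libraries, and 1468 met that for fibroblasts, against 182 to 266. The tumor gate asked for Hmga2 and for 0 UMIs of Ptprc, C1qa, Cd3e, Col1a1 and Col1a2, so tumor cells with stray collagen RNA would fail it. Outside the neutrophils, stromal and endothelial markers summed to 44842 CPM in WT anti-PD1 against 1257 to 2097 CPM elsewhere. Tumor markers summed to 80.0 CPM against 943 to 1463 CPM. How many tumor cells this gate missed was not tested. Between any pair of libraries 13 to 22 barcode sequences were shared, and none was a neutrophil in both.

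Most neutrophil markers outside the rule were detected, but several were low, with Ly6g near 0. S100a8 and S100a9 lie side by side on chromosome 3 (GRCm38, 90668978 to 90670035 on the plus strand and 90692632 to 90695721 on the minus strand) and encode the subunits of calprotectin, the main cytosolic protein of neutrophils. S100a8 stood at 21579 (IgG) and 6695 CPM (anti-PD1) in WT tumors and 13699 and 11751 CPM in A159V tumors. Csf3r, the receptor for the growth factor G-CSF, stood at 1342 (IgG) and 1208 CPM (anti-PD1) in WT tumors and 1174 and 878 CPM in A159V tumors, and Cxcr2 at 627 (IgG) and 608 CPM (anti-PD1) in WT tumors and 363 and 370.2 CPM in A159V tumors. Retnlg, a secreted protein of blood neutrophils, was the most uneven of the rule genes at 1969.7 (IgG) and 171 CPM (anti-PD1) in WT tumors and 4096 and 2962 CPM in A159V tumors. These genes chose the members and are given as a description. In WT anti-PD1 the median of S100a8 and S100a9 together was 21 UMIs per neutrophil, against 55, 38 and 43 in WT IgG, A159V IgG and A159V anti-PD1.

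Among 20 further neutrophil markers, 18 to 20 were detected in each library, with a summed level of 16245 to 25092 CPM (UMI counts scaled to the same neutrophil total in each library) against 558 to 1097 CPM in all other barcodes. In Ly6c2 monocytes they summed to 1980 to 3449 CPM. Between 14 and 16 of the list reached 100 CPM and 20 UMIs in the higher library of each comparison. Hdc, which makes histamine, Il1r2, a decoy receptor for interleukin-1, and Mxd1, a partner of MAX that opposes MYC, were among its most abundant members, with Mxd1 at 2999 (IgG) and 2207 CPM (anti-PD1) in WT tumors and 2525 and 1996 CPM in A159V tumors. Ly6g, which defines mouse neutrophils in flow cytometry, was near 0 at 25.1 (IgG) and 1.92 CPM (anti-PD1) in WT tumors and 16.9 and 24.7 CPM in A159V tumors. Of a list of primary granule and precursor genes, which are transcribed only in marrow precursors, Elane, Ctsg and Ms4a3 had 0 UMIs in all 4 libraries. This allows up to 37.6 and 5.75 CPM in WT tumors and 25.3 and 10.6 CPM in A159V tumors. The other 2 of the 5 listed were detected only in A159V anti-PD1. There they summed to 17.6 CPM, and 2.47% of the neutrophils had a UMI. The secondary granule genes Camp and Ngp lay at or under 21.2 CPM, and Lcn2, which is also induced in mature cells, stood at 427 (IgG) and 82.4 CPM (anti-PD1) in WT tumors and 346 and 338 CPM in A159V tumors. Siglecf, a marker of neutrophils described in some tumors, lay at or under 12.5 CPM.

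Markers of most other cells were low but not absent, while stromal and endothelial markers were not low in WT anti-PD1 and A159V anti-PD1. T and NK cell markers, of which 3 of 11 are exclusion genes and so at 0, summed to 0 CPM in both IgG libraries, 144 CPM in WT anti-PD1 (19.1 CPM without the barcodes over 5000 UMIs) and 10.6 CPM in A159V anti-PD1, and macrophage markers to 222 to 279 CPM. Stromal and endothelial markers summed to 100.4 and 9586 CPM in WT tumors and 127 and 4259 CPM in A159V tumors. Without the barcodes over 5000 UMIs these were 100.4, 1370.1, 150.1 and 279.8 CPM, so WT anti-PD1 stayed the highest. Tumor markers summed to 37.6, 28.8, 473 and 303 CPM, or 37.6, 2.39, 96.5 and 56.8 CPM without those barcodes, with Epcam and Krt8 at 0, and monocyte markers to 866, 591, 439 and 1668 CPM, or 866, 267, 557 and 1167 CPM. In WT anti-PD1 85.1% of the neutrophils had at least 1 stromal UMI, against 12.3% to 31.5% elsewhere. The part of this RNA in the results for WT anti-PD1 was not tested. Genes at a lower CPM in the neutrophils than in the other barcodes of the same library were left out of the comparisons as possible stray RNA.

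Beyond the rule genes, a set of transcripts led the neutrophils in every library. Of 167 genes at 500 CPM or more in all 4, 91 were at least 2-fold higher in neutrophils than in all other immune barcodes of each library. G0s2, an inhibitor of lipolysis, came first, with a lowest log2 ratio over the 4 libraries of 4.98. It stood at 8129.9 (IgG) and 1793 CPM (anti-PD1) in WT tumors and 6681 and 3335 CPM in A159V tumors, against 0.91 to 5.46 CPM in Ly6c2 monocytes. Hcar2, a receptor for nicotinic acid and ketone bodies, Ankrd33b, Cstdc4, an inhibitor of cysteine proteases, and Hdc followed with lowest log2 ratios of 4.37, 4.31, 4.16 and 3.93. The 20 leading genes also held Il1rap and Il1r2 of the interleukin-1 system, Acod1, the enzyme that makes itaconate, Slc7a11, the cystine transporter, Arg2, Igf1r, Sgms2, Antxr2, Entpd1, Lmnb1, Clec4d, Ets2 and Msra. Cxcl2, a ligand of CXCR2, was the most abundant of them at 29383 (IgG) and 24381 CPM (anti-PD1) in WT tumors and 24037 and 20967 CPM in A159V tumors, and Ccl3, which draws monocytes and lymphocytes, stood at 3889 (IgG) and 4534 CPM (anti-PD1) in WT tumors and 4409 and 4217 CPM in A159V tumors. The levels of Ccl3 spanned less than those of Slc7a11, which stood at 5319.6 (IgG) and 12139.9 CPM (anti-PD1) in WT tumors and 2753 and 3455 CPM in A159V tumors, highest in WT anti-PD1. These genes separate cells that the rule had already separated, and the ratios are a description.

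**Figure D1:**
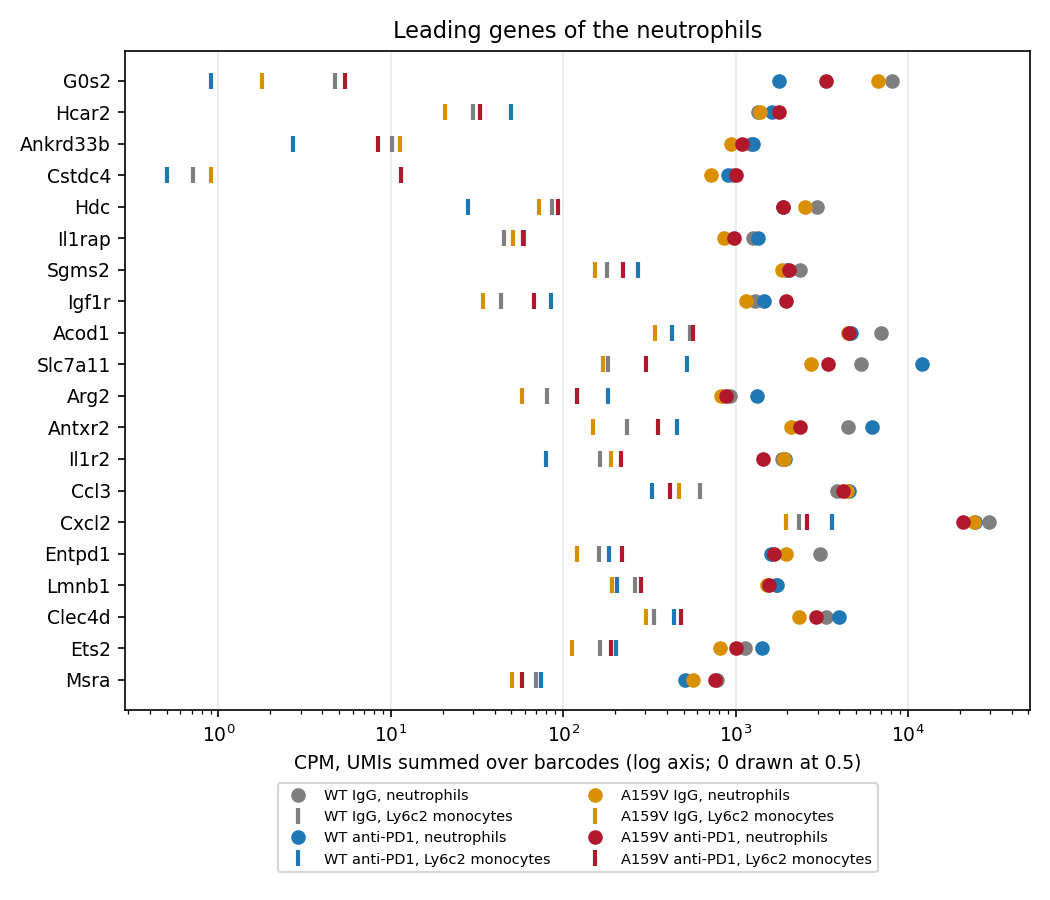
Levels of the 20 leading genes in CPM (log axis) in the neutrophils (circles) and in Ly6c2 monocytes (vertical ticks) of each library. All circles lie to the right of all ticks of the same gene, with G0s2 lowest in WT anti-PD1 at 1793 CPM and Slc7a11 highest there.

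Neutrophils were the most frequent in WT anti-PD1. CD45+ and CD45− cells had been separated with beads and remixed before loading, so immune barcodes served as the denominator. Of these, neutrophils made up 1.06% (57 of 5356, exact Clopper-Pearson interval 0.807% to 1.38%) and 5.29% (261 of 4935, 4.68% to 5.95%) in WT tumors, and 1.74% (91 of 5242, 1.40% to 2.13%) and 2.45% (162 of 6621, 2.09% to 2.85%) in A159V tumors. The share in WT anti-PD1 was 4.97-fold that in WT IgG (Katz interval, 3.74 to 6.60), and it stayed between 4.30-fold and 6.01-fold under the 8 other gates and denominators. In A159V tumors the anti-PD1 share was 1.41-fold the IgG share (1.09 to 1.82). The A159V IgG share was 1.63-fold that of WT IgG (1.17 to 2.27), but with a minimum of 500 genes per barcode, the study's own filter, it was 0.962-fold (0.623 to 1.48), since A159V IgG kept 39 of its 91 neutrophils and WT IgG 42 of 57. Under that minimum the anti-PD1 fold in A159V was 2.44 (1.71 to 3.49). Per 100 Ly6c2 monocytes there were 6.24, 137, 13.6 and 15.7 neutrophils, as WT anti-PD1 held 190 such monocytes against 914, 671 and 1029. With 1 library a group, the treatment, the tumor and the handling of a sample cannot be told apart.

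**Figure D2:**
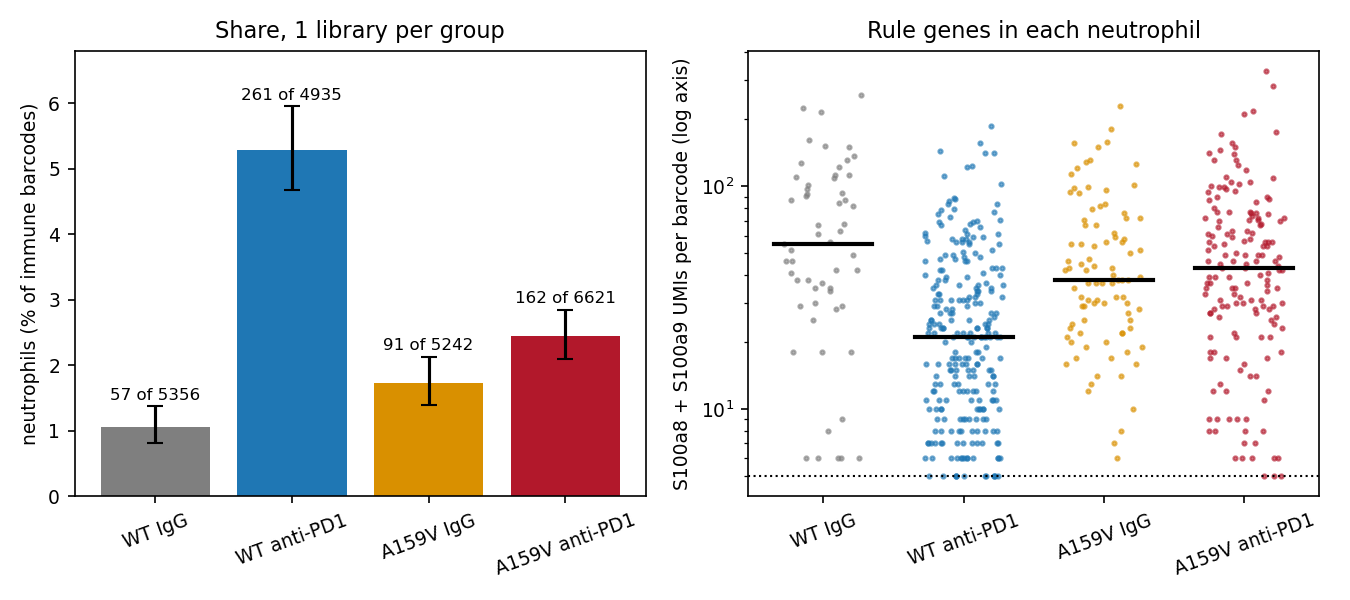
Left, neutrophils as a percent of immune barcodes in each library, with exact binomial 95% intervals for counting error; right, S100a8 and S100a9 UMIs in each neutrophil (log axis), with the median as a bar and the threshold of 5 UMIs as a dotted line. WT anti-PD1 has the highest share and the lowest median, 21 UMIs.

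Gene levels were compared between libraries over UMIs summed across neutrophils, for genes with at least 100 CPM and 20 UMIs in the higher library, and a log2 ratio of 1 or more either way counted as at least 2-fold by size alone. WT IgG is the denominator of 2 of the 3 comparisons, and A159V IgG is the numerator of one and the denominator of another, so the comparisons are not independent. In WT anti-PD1 over WT IgG, 223 of 1010 genes were at least 2-fold higher (22.1%) and 126 lower (12.5%). In A159V IgG over WT IgG, 26 of 732 were higher (3.55%) and 71 lower (9.7%), and in A159V anti-PD1 over A159V IgG 124 of 1095 were higher (11.3%) and 13 lower (1.19%). The minimum of 20 UMIs asks for a higher CPM in a shallower library, so weak genes could count as higher with anti-PD1 more easily than as lower. At a minimum of 200 CPM, 132 genes were higher and 126 lower of 769 in WT, with a median log2 ratio of -0.01. In A159V 40 were higher and 11 lower of 698. The percents of all genes given beside the lists below carry the same inequality. Leaving out the barcodes over 5000 UMIs turned the genotype comparison from 26 higher and 71 lower into 40 and 43 genes of 713. With median-of-ratios scaling in place of totals they were 37 and 46. The single barcode left out of A159V IgG there held 25120 UMIs and carried tumor markers. Of the genes called with all members, 20 of 26 and 39 of 71 were still called, as were 216 of 223 and 95 of 126 in WT anti-PD1 and 88 of 124 and 11 of 13 in A159V anti-PD1.

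**Figure D3:**
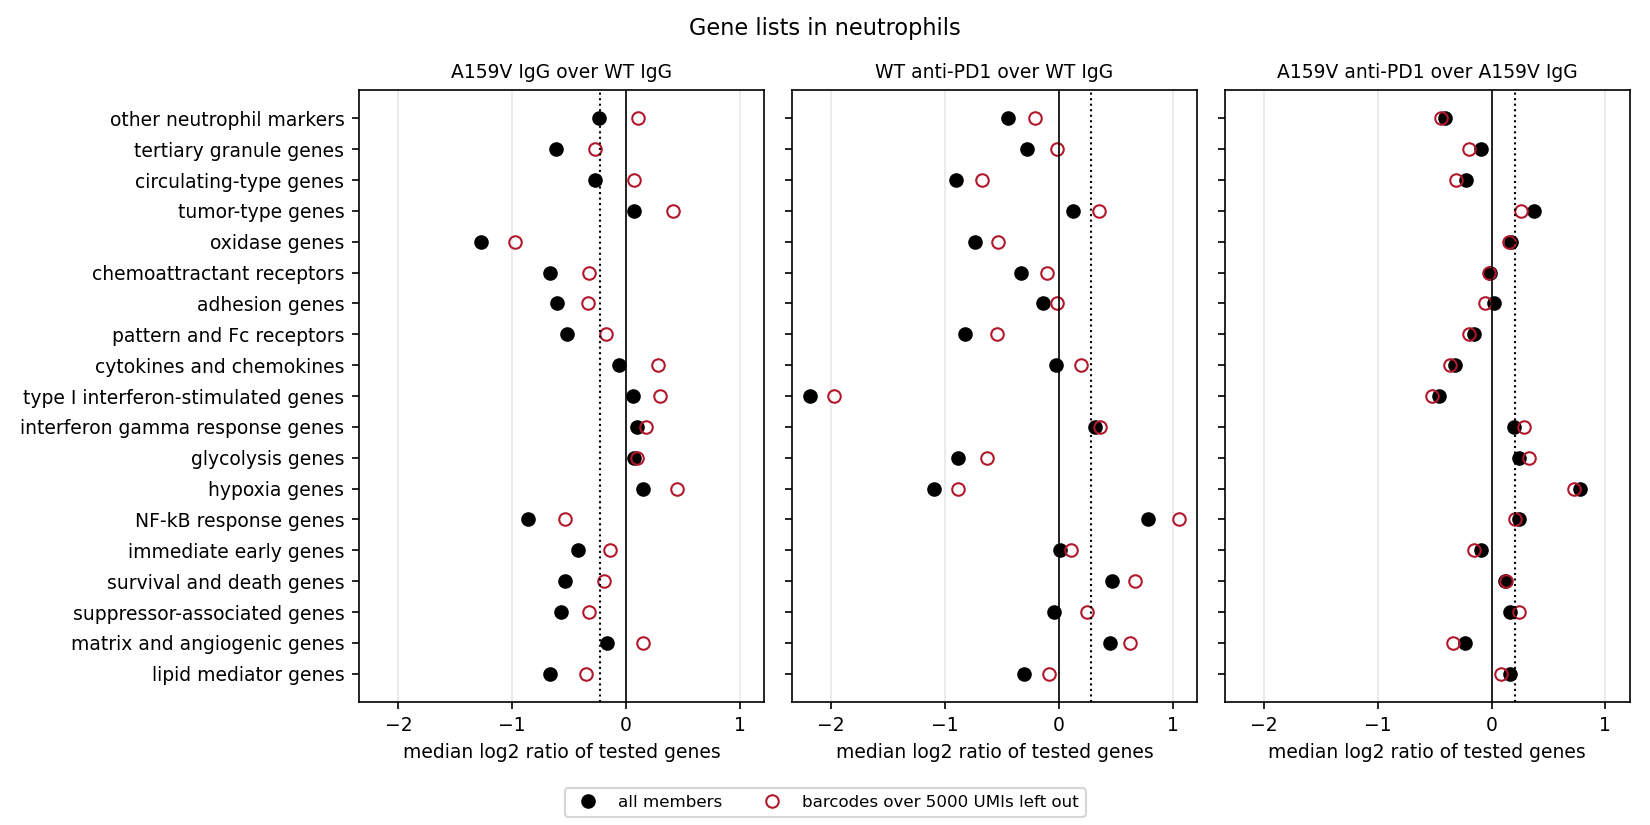
Median log2 ratio of the genes compared in each list in the 3 comparisons, with all members (filled) and with barcodes over 5000 UMIs left out (open); the dotted line is the median over all genes compared, and lists with fewer than 3 such genes are not drawn. Type I interferon-stimulated genes lie lowest in WT anti-PD1 over WT IgG at -2.18, and NF-κB response genes highest there at 0.78.

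The genes lower in WT anti-PD1 were led by the type I interferon program. Of 25 such genes measured, 22 were compared with WT IgG, 20 of them were at least 2-fold lower and 0 were higher, against 12.5% and 22.1% of all genes, with a median log2 ratio of -2.18 beside 0.28 for all genes compared. Isg15, a ubiquitin-like modifier, stood at 3174 (IgG) and 491 CPM (anti-PD1) in WT tumors and 3767 and 2665 CPM in A159V tumors, a log2 ratio of -2.69 (-2.94 to -2.44) in WT. Rsad2, which makes an antiviral nucleotide, stood at 2497 (IgG) and 418 CPM (anti-PD1) in WT tumors and 4358 and 3296 CPM in A159V tumors, or -2.58 (-2.85 to -2.30). In both genes WT anti-PD1 was the low library and the other 3 lay within 2-fold of each other. The IFIT proteins bind viral RNA, and Ifit3 stood at 1154 (IgG) and 53.7 CPM (anti-PD1) in WT tumors and 1512 and 1047 CPM in A159V tumors, the lowest ratio of any gene compared at -4.40 (-5.00 to -3.80). Ifit2 (-3.90), Ifit3b (-3.30), Ifit1 (-2.73), Usp18, which removes ISG15 and dampens the interferon receptor (-3.62), and Herc6, the mouse ligase for ISG15 (-2.59), were also among the 10 lowest, as were Isg20 (-2.89) and Parp14 (-2.61), which interferon induces but which the list did not hold. Without the barcodes over 5000 UMIs the median was -1.97, with 19 of 22 at least 2-fold lower. Slfn4, a myeloid Schlafen gene, was the most abundant of the list at 5106 (IgG) and 1145 CPM (anti-PD1) in WT tumors and 4865 and 3353 CPM in A159V tumors. Oasl2 (-0.64) and Ifi47 (-0.00) were the members compared that did not reach 2-fold.

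Interferon acts through a short element found upstream of many of its target genes. The promoters of Isg15, Ifit3 and Rsad2 are shown from 250 bases before to 50 bases after the RefSeq start (GRCm38.p6), 5′ to 3′ on the strand of the gene, with matches to GAAANNGAA, a core of the interferon-stimulated response element, in capitals on either strand.
Isg15, chr4:156200769-156201068, minus strand: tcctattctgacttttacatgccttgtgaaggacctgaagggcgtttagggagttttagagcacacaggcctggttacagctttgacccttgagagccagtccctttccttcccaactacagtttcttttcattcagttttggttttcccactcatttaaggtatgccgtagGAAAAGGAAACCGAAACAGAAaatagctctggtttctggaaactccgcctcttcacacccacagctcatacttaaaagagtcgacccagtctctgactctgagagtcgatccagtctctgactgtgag
Ifit3, chr19:34583279-34583578, plus strand: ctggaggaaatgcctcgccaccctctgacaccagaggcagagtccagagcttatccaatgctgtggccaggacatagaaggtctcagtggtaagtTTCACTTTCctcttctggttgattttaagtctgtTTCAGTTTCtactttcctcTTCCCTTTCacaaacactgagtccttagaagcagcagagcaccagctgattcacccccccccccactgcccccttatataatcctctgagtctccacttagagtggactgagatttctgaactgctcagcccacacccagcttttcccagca
Rsad2, chr12:26456403-26456702, minus strand: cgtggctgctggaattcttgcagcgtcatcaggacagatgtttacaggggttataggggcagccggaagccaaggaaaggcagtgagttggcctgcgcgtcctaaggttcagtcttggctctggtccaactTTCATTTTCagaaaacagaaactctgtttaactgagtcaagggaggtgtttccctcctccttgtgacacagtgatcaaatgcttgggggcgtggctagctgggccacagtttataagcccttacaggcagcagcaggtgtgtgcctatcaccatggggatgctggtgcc
Isg15 has 3 matches, which overlap, Ifit3 also has 3, and Rsad2 has 1. The core was found in 13 of the 24 promoters available for genes of the list, and in 8.56% of all 32851 promoters. Counted by gene, it was found in 11 of 21 and in 2638 of 27025. These matches describe the letters and show no binding.

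In A159V tumors the ratios of the interferon genes with anti-PD1 were smaller. Of 23 compared, 0 were at least 2-fold lower, against 1.19% of all genes, and 22 lay below 0, with a median log2 ratio of -0.47 beside 0.20 for all genes, and Isg15 was at -0.50 (-0.67 to -0.33). In A159V IgG over WT IgG the median was 0.06 beside -0.23, and 0.30 without the barcodes over 5000 UMIs, where Rsad2 lay at 1.13. Whether the difference with anti-PD1 is itself different between the genotypes could not be tested.

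Within each library the cells varied over a wide range. The list took a median of 1.94% of a neutrophil's UMIs (0.50% to 5.39% between the 10th and 90th percentiles) under IgG and 0.43% (0.09% to 1.80%) under anti-PD1 in WT tumors, and 2.98% (0.86% to 6.25%) and 2.63% (0.42% to 5.26%) in A159V tumors. The ranges overlap, and the median cell of WT anti-PD1 lay below the 10th percentile of WT IgG. After each barcode was thinned to 500 UMIs, Isg15 was detected in 61.4%, 19.9%, 79.1% and 65.4% of neutrophils, against 77.2%, 43.3%, 86.8% and 82.7% without thinning. T cells thinned in the same way had an Isg15 UMI in 22.4%, 3.02%, 19.2% and 17.2%.

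**Figure D4:**
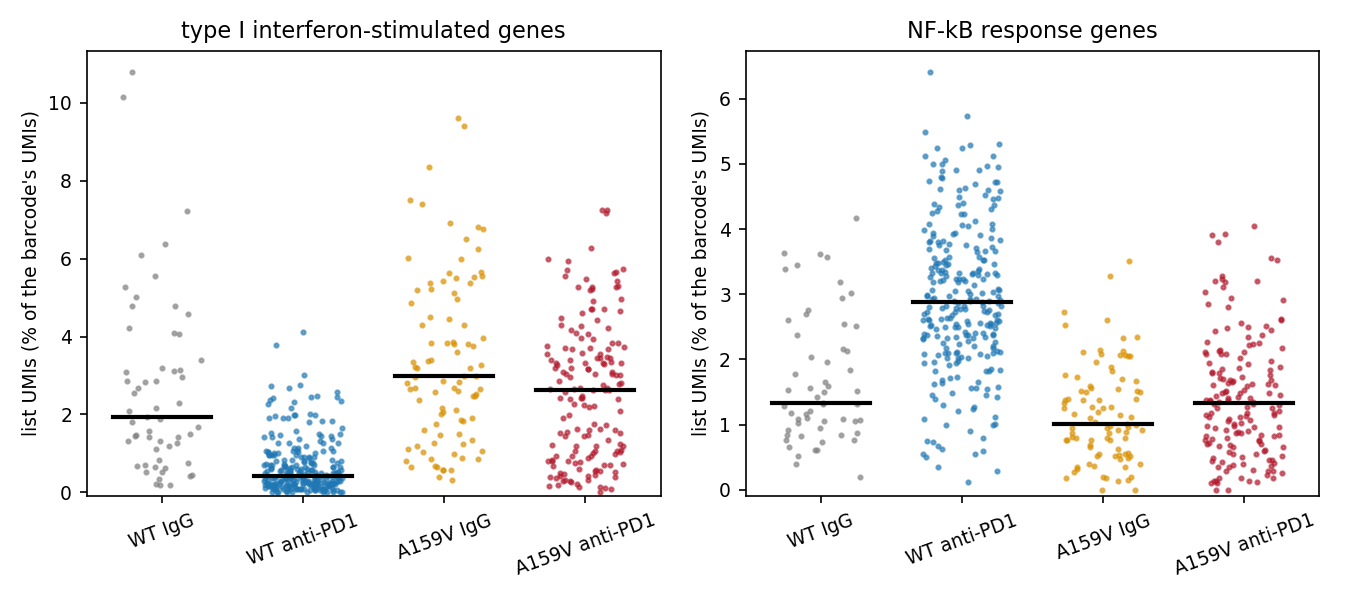
Share of each neutrophil's UMIs from type I interferon-stimulated genes (left) and NF-κB response genes (right), in percent, by library, with the median as a bar. WT anti-PD1 has the lowest median on the left, 0.43%, and the highest on the right, 2.89%.

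The other cell classes of WT anti-PD1 also had a lower interferon level than those of WT IgG. The list summed to 25569 CPM in neutrophils of WT IgG and 6097 CPM in those of WT anti-PD1, to 19436 and 7671 in Ly6c2 monocytes, to 9240.0 and 3169 in C1q macrophages, to 5869 and 1639.5 in T cells and to 7242 and 2292 in fibroblasts. Counted over list genes at 20 CPM or more, the median log2 ratio was -2.14 in neutrophils, -1.27 in monocytes, -1.81 in macrophages, -1.78 in T cells and -1.86 in fibroblasts. The differences between these classes were not tested.

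**Figure D5:**
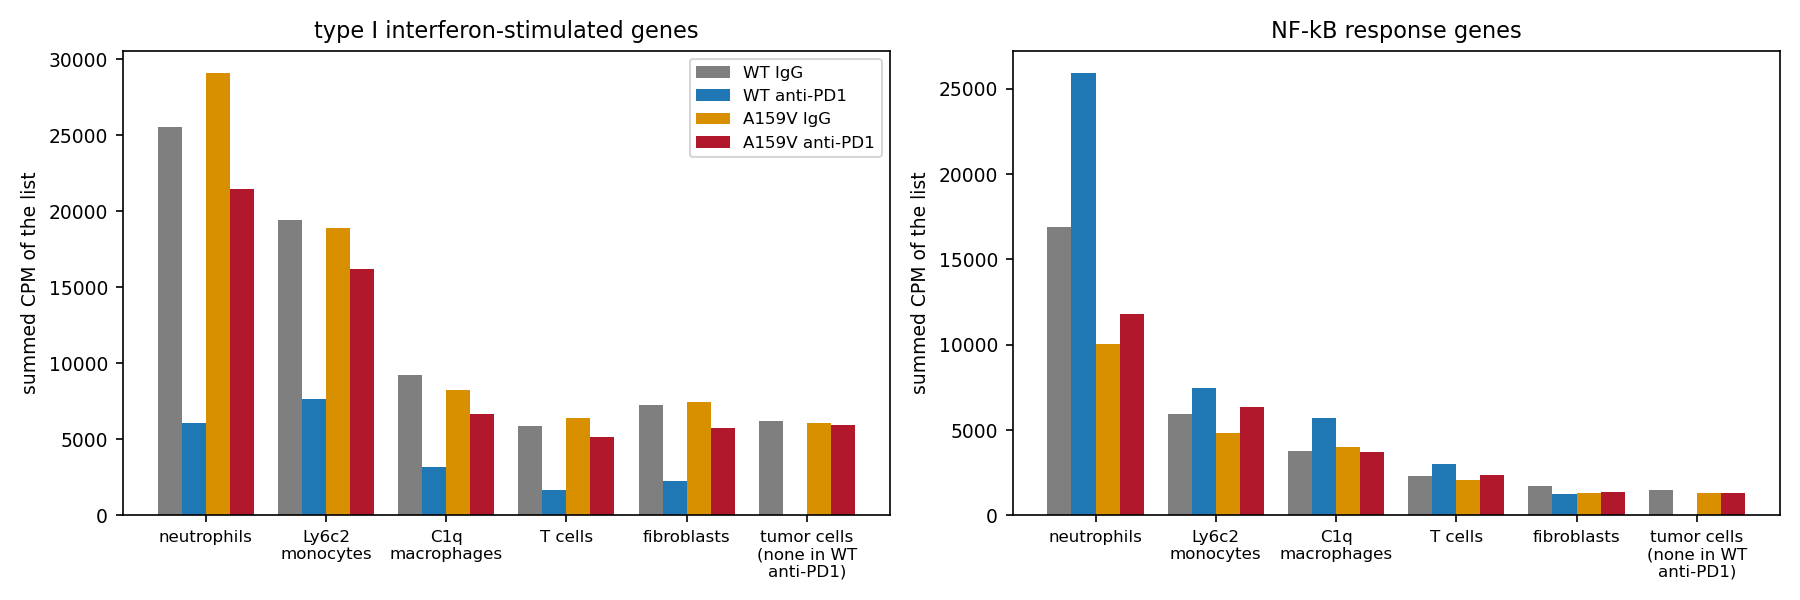
Summed CPM of type I interferon-stimulated genes (left) and NF-κB response genes (right) in 6 gated classes of each library; no tumor cell bar is drawn for WT anti-PD1, where 0 barcodes met that gate. Neutrophils have the highest NF-κB sum in every library, and the interferon sum of WT anti-PD1 is the lowest of the 4 in each class drawn for it.

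NF-κB response genes lay on the other side. In WT anti-PD1 over WT IgG, 10 of 11 compared had a ratio above 0 and 4 were at least 2-fold higher, against 22.1% of all genes, and 0 lower, with a median of 0.78, and without the barcodes over 5000 UMIs 6 of 11 were higher with a median of 1.05. Icam1, an adhesion molecule, stood at 226 (IgG) and 1016 CPM (anti-PD1) in WT tumors and 42.2 and 84.6 CPM in A159V tumors, a log2 ratio of 2.16 (1.49 to 2.84). After thinning to 500 UMIs it was seen in 36.8% of WT anti-PD1 neutrophils and in 5.26%, 2.20% and 3.70% of those in WT IgG, A159V IgG and A159V anti-PD1, while 4.73%, 5.58%, 4.16% and 3.78% of T cells had a UMI. T cells can express Icam1 themselves, so how much of the low share in the other 3 libraries is stray RNA was not tested, and no difference is read among those 3. Without thinning, 15.8%, 64.0%, 4.40% and 6.79% of neutrophils and 26.5%, 32.7%, 17.1% and 19.6% of T cells had an Icam1 UMI, at median depths of 2366 to 3819.5 UMIs in T cells. Nfkbia, which encodes the inhibitor of NF-κB and is among its first targets, stood at 4253 (IgG) and 7774 CPM (anti-PD1) in WT tumors and 3176 and 3275 CPM in A159V tumors. Nlrp3, the inflammasome sensor, stood at 2396 (IgG) and 4126 CPM (anti-PD1) in WT tumors and 1334 and 1572 CPM in A159V tumors, and Tnfaip3, the deubiquitinase A20, at 878 (IgG) and 1844 CPM (anti-PD1) in WT tumors and 439 and 807 CPM in A159V tumors. In these 3 genes WT anti-PD1 was the highest library and A159V IgG the lowest. Tnfaip2 (1.20) and Sod2 (1.52) were the other 2 that reached 2-fold with all members. Counted over list genes at 20 CPM or more, the median of this comparison was 0.50 in neutrophils. It was 0.27 in Ly6c2 monocytes, 0.24 in C1q macrophages, 0.25 in T cells and -0.32 in fibroblasts. The differences between these classes were not tested.
Promoters of Nfkbia, Icam1 and Cxcl1, which is described next, are shown in the same way with matches to GGNNNTTCC, a core of the κB site, in capitals.
Nfkbia, chr12:55492598-55492897, minus strand: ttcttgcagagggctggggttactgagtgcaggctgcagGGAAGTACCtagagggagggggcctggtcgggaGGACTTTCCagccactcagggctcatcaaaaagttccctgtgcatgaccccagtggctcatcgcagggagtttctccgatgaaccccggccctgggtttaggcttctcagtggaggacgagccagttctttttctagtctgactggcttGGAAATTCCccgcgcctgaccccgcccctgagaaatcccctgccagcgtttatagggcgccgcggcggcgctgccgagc
Icam1, chr9:21015690-21015989, plus strand: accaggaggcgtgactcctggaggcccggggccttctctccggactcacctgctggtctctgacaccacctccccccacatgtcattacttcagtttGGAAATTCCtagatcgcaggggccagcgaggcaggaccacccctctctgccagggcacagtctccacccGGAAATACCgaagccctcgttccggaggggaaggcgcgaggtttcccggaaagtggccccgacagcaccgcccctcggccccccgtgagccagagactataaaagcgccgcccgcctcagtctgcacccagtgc
Cxcl1, chr5:90890995-90891294, plus strand: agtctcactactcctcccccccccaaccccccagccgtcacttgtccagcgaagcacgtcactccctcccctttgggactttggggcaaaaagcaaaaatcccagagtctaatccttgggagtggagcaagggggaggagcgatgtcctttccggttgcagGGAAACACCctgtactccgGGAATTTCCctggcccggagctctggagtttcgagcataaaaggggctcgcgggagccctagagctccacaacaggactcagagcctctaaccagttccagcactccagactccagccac
This core was found in 12 of 16 promoters of the NF-κB list, in 10 of 24 of the interferon list and in 18.48% of all promoters. A gene can have more than 1 promoter here. Counted by gene, it was found in 8 of 12, 10 of 21 and 5584 of 27025.

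Of 14 cytokine and chemokine genes compared in WT anti-PD1 over WT IgG, 4 were at least 2-fold higher and 2 lower, with a median of -0.02. These shares lie near the 22.1% and 12.5% of all genes, so the list as a whole did not stand apart. Cxcl1, a ligand of CXCR2, stood at 25.1 (IgG) and 684 CPM (anti-PD1) in WT tumors and 101 and 77.6 CPM in A159V tumors, or 357 UMIs in WT anti-PD1 against 2 in WT IgG, a log2 ratio of 4.72 (2.79 to 6.64). Il23a, a subunit of interleukin-23, stood at 50.2 (IgG) and 458 CPM (anti-PD1) in WT tumors and 33.8 and 17.6 CPM in A159V tumors, and Tnf at 364 (IgG) and 1338 CPM (anti-PD1) in WT tumors and 194 and 303 CPM in A159V tumors. Il1rn, the interleukin-1 receptor antagonist, was higher at 1.04 (0.73 to 1.36). In Cxcl1, Il23a and Tnf the WT anti-PD1 library stood apart and the other 3 were lower. The 2 lower genes were Osm, a cytokine of the interleukin-6 family, at -1.97 (-2.27 to -1.68) and Cxcl10, a ligand of CXCR3 that draws T cells, at -1.82 (-2.09 to -1.54). The most abundant, Cxcl2, Il1b and Ccl4, differed by less than 2-fold, and Il1b stood at 15758 (IgG) and 12347 CPM (anti-PD1) in WT tumors and 9848 and 7224 CPM in A159V tumors. Cxcl5, Ppbp, Csf2 and Il17a, which also attract or sustain neutrophils, were measured at or under 3.83 CPM. In WT IgG they had 0 UMIs, with an interval that reaches 46.3 CPM. Csf3, the gene of G-CSF, stood at 0 (IgG) and 36.4 CPM (anti-PD1, 19 UMIs) in WT tumors and 8.45 and 3.53 CPM in A159V tumors. Cxcl2 was far lower in other cells, with 1968 to 3644 CPM in Ly6c2 monocytes. Cxcl1 in WT IgG stood at 390.3 CPM in fibroblasts, above neutrophils, and in WT anti-PD1 at 197 CPM, below them. In C1q macrophages of WT tumors it stood at 73.9 CPM under IgG and 444 under anti-PD1, and in Ly6c2 monocytes at 91.5 and 193 CPM.

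The remaining counts for WT anti-PD1 over WT IgG are read against the 22.1% of all genes that were at least 2-fold higher and the 12.5% that were lower. Of 11 survival and death genes compared, 4 were at least 2-fold higher and 0 lower. These were Pim1, a kinase induced by cytokines, at 1694 (IgG) and 3996 CPM (anti-PD1) in WT tumors and 1199 and 1125 CPM in A159V tumors, Bcl2l11, which encodes the death factor BIM, Fas, a death receptor, and Bcl2a1d, of the BCL2 family. Bcl2a1d has near-identical copies, and its counts are uncertain. Of 7 adhesion genes 1, Icam1, was at least 2-fold higher and 0 lower, with a median of -0.13. Cd44, a receptor for hyaluronan, stood at 2258 (IgG) and 3902 CPM (anti-PD1) in WT tumors and 1486 and 1470.2 CPM in A159V tumors. Of 8 chemoattractant receptors compared, Fpr2, a formyl peptide receptor (1.58), and Ltb4r1, a leukotriene B4 receptor (1.20), were at least 2-fold higher, and 0 were lower, a share of the list near that of all genes, with a median of -0.33. Of 10 pattern and Fc receptors compared 0 were higher and 3 lower, led by Fcer1g, the shared Fc receptor chain, at -1.47 (-1.72 to -1.23). Among circulating-type genes 3 of 6 were lower, with Lcn2 at -2.36 (-3.00 to -1.71). Wfdc17, a small protease inhibitor, stood at 1455 (IgG) and 188 CPM (anti-PD1) in WT tumors and 456 and 1279.8 CPM in A159V tumors, and G0s2 was lower at -2.18 (-2.33 to -2.04).

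Among the other lists, 3 of 9 interferon gamma response genes were at least 2-fold higher and 1 lower (median 0.31), 1 of 14 immediate early genes was higher (0.01), 2 of 9 suppressor-associated genes were lower (-0.04), and no gene reached 2-fold among 7 matrix and angiogenic genes (0.45), 5 tertiary granule genes (-0.28), 3 MHC class I genes (-0.03) and 3 genes of lipid mediators (-0.30). No MHC class II gene, a mark of antigen-presenting cells, was compared, since 3 were left out as possible stray RNA and the others were under the minimum. The 7 genes summed to 151 CPM in WT IgG and 1004.6 CPM in WT anti-PD1, or 508 CPM there without the barcodes over 5000 UMIs.

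Of the 10 highest ratios in WT anti-PD1 over WT IgG, 5 belonged to genes with 0 UMIs in WT IgG, where the depth was least. Cacnb2, a calcium channel subunit, stood at 220.5 CPM and was at least 5.86-fold higher against the limit of 3 counts, and Soga1, Tfec, Stx7 and Ccdc62 stood at 102 to 117 CPM. Cxcl1 was the sixth, and Denr, Tmem123, Astl and Gm17749 rested on 1 UMI in WT IgG. Without the barcodes over 5000 UMIs Tmem123 went from 194 to 54.9 CPM in WT anti-PD1.

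Few genes of glycolysis and of the response to low oxygen passed the minimum in WT anti-PD1 over WT IgG. Of 16 glycolysis genes 4 were compared, and 2 of them were at least 2-fold lower, against 12.5% of all genes, or 1 without the barcodes over 5000 UMIs. Hk2, hexokinase 2, stood at 314 (IgG) and 59.4 CPM (anti-PD1) in WT tumors and 177 and 317 CPM in A159V tumors, and Slc2a3, a glucose transporter, at 389 (IgG) and 189.8 CPM (anti-PD1) in WT tumors and 599.7 and 381 CPM in A159V tumors. Of 3 hypoxia genes compared 2 were at least 2-fold lower, against the same 12.5%, or 1 without the barcodes over 5000 UMIs, among them Hilpda, which blocks lipolysis in lipid droplets under low oxygen, at 502 (IgG) and 127 CPM (anti-PD1) in WT tumors and 1098 and 1357 CPM in A159V tumors. In A159V anti-PD1 over A159V IgG, 8 hypoxia genes were compared, 3 were at least 2-fold higher, against 11.3% of all genes, and 0 lower, with a median of 0.78 (0.73 without the barcodes over 5000 UMIs). Bnip3, a mitophagy receptor, stood at 75.3 (IgG) and 42.2 CPM (anti-PD1) in WT tumors and 92.9 and 303 CPM in A159V tumors, Ero1l, an oxidase of protein folding, at 301 (IgG) and 140.0 CPM (anti-PD1) in WT tumors and 279 and 642 CPM in A159V tumors, and Egln3, an oxygen-sensing hydroxylase, at 176 (IgG) and 128 CPM (anti-PD1) in WT tumors and 84.5 and 219 CPM in A159V tumors. In Hilpda both A159V libraries stood above both WT libraries.

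Neutrophils of A159V IgG had lower levels of Nfkb1 and of several receptor genes than those of WT IgG. Nfkb1, a subunit of NF-κB, stood at 803 (IgG) and 945 CPM (anti-PD1) in WT tumors and 169 and 197 CPM in A159V tumors, a log2 ratio of -2.24 (-2.96 to -1.52), with both A159V libraries below both WT libraries. All 8 NF-κB response genes compared had a ratio below 0, but only Nfkb1 was at least 2-fold lower, a share close to the 9.7% of all genes, with a median of -0.86 beside -0.23 for all genes, or -0.53 beside 0.02 without the barcode of 25120 UMIs. Dusp2, a phosphatase induced in activated leukocytes, stood at 263 (IgG) and 947 CPM (anti-PD1) in WT tumors and 25.3 and 42.3 CPM in A159V tumors, the second lowest at -3.33 (-5.01 to -1.64). Clec1a, a C-type lectin, was the lowest, at 20 UMIs in WT IgG and 1 in A159V IgG and a log2 ratio of -4.74 (-7.34 to -2.13), and Cd86, a costimulatory ligand, followed at -2.93. Clec4n, the Dectin-2 receptor (-1.91), Slfn3 (-1.85), Dach1, Rbm47, Ankrd44 and Gm26917 were the other genes among the 10 lowest.

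The oxidase genes encode the complex that makes superoxide, and Rac2 is its GTPase in neutrophils. Of 4 compared in A159V IgG over WT IgG 3 were at least 2-fold lower, against 9.7% of all genes, and without the barcode of 25120 UMIs 1 was, against 43 of 713 genes, with a median of -0.98. Rac2 stood at 376 (IgG) and 226 CPM (anti-PD1) in WT tumors and 152 and 183 CPM in A159V tumors, or -0.96 without that barcode, and Cybb, the catalytic subunit, at 314 (IgG) and 242 CPM (anti-PD1) in WT tumors and 92.9 and 268 CPM in A159V tumors. Both were lowest in A159V IgG. Rac1, the gene edited in the tumor cells, stood at 276 (IgG) and 174 CPM (anti-PD1) in WT tumors and 270.3 and 381 CPM in A159V tumors in these host cells and was left out as possible stray RNA in each comparison. Cxcr4, a receptor for CXCL12, was lower at -1.57 (-2.26 to -0.88), and Tlr2 at -1.73 (-2.58 to -0.89), both with all members. Among 6 chemoattractant receptors compared 2 were at least 2-fold lower, and among 10 pattern and Fc receptors 2, against 9.7% of all genes. Without the barcode of 25120 UMIs these counts were 1 and 2, against 43 of 713 genes. The medians of these 2 lists were -0.67 and -0.52 with all members and -0.33 and -0.18 without that barcode. With all members 26 genes were at least 2-fold higher, with Hspa1a, an inducible heat shock protein, first at 50.2 CPM in WT IgG and 312.5 in A159V IgG. Schip1, Atp6v1a, Lrrk2, Ddit3, a factor of the unfolded protein response, Rtn4, AW011738, Nt5c3, Cast and Gm20406 followed, with log2 ratios of 1.29 to 1.93 on 4 to 10 UMIs each in WT IgG. Ccl4, a chemokine gene, stood at 10137 (IgG) and 6724 CPM (anti-PD1) in WT tumors and 15540.5 and 10644 CPM in A159V tumors, a ratio of 0.62 (0.50 to 0.74) that became 0.96 without the barcode of 25120 UMIs.

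In A159V anti-PD1 over A159V IgG 9 of the 10 highest ratios rested on a few barcodes. Dcn, Col14a1, Dpt, Col5a2, Fbn1, Ebf1, Fndc1, Dlc1 and Tgfbr3, genes of fibroblasts, stood at 123 to 268 CPM, and without the 3 barcodes over 5000 UMIs they stood at 0 to 13.1 CPM. Vcan, the monocyte gene among the 10, kept 114 CPM. By the same rule without those barcodes, Cd36, a fatty acid receptor, was the most abundant of the 10 highest, at 669 CPM against 21.4, and Rhov, a small GTPase, stood at 306 CPM against 53.6. Olr1, a receptor for oxidized lipoprotein, was lower at -2.02 (-2.74 to -1.30), and Cxcl10, at 2108 (IgG) and 598 CPM (anti-PD1) in WT tumors and 2989.9 and 673 CPM in A159V tumors, was lower at -2.15 (-2.40 to -1.90). The summed level of Cxcl10 was thus lower with anti-PD1 in tumors of both genotypes. It was seen in 19.3% (10.0% to 31.9%) and 7.28% (4.44% to 11.1%) of thinned neutrophils in WT tumors. In A159V tumors these shares were 25.3% (16.7% to 35.5%) and 16.0% (10.8% to 22.6%), and the intervals overlap within each genotype. Schip1 (-2.43), Trim30c, AW011738, Apobec1, Phlda1, Lbr, Plk3 and Pttg1 were the other lower genes named. Phlda1 and Pttg1 moved to -0.29 and -0.86 without those barcodes. Cd274, which encodes the PD1 ligand PD-L1, stood at 1305 (IgG) and 1336 CPM (anti-PD1) in WT tumors and 1394 and 2193 CPM in A159V tumors. In A159V anti-PD1 it was the highest of the 4, at 0.65 (0.41 to 0.90), which is under 2-fold, and it was seen in 59.3% of thinned neutrophils against 44.0% in A159V IgG, or 79.6% and 58.2% without thinning. Thinned T cells had a Cd274 UMI in 8.41% to 11.9%.

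Retnlg varied among the neutrophils of each library. It is a gene of the rule, so a split of the members by it is a description and supports nothing. After thinning to 500 UMIs, 25 of 57 and 25 of 261 neutrophils in WT tumors and 60 of 91 and 87 of 162 in A159V tumors had a Retnlg UMI. Cells with it against cells without had log2 ratios of Ccl3 of -1.46 and -0.14 in WT tumors and -1.09 and -1.26 in A159V tumors, where the WT anti-PD1 interval (-0.52 to 0.25) includes 0. The tumor-type list, which holds chemokine genes such as Ccl3 and Ccl4, had ratios of -0.87, 0.25, -0.39 and -0.40. The circulating-type list did not follow a single pattern, with 1.62 and -0.46 (-1.10 to 0.18) in WT tumors and 0.01 (-0.52 to 0.55) and 0.99 in A159V tumors. Lcn2 stood at 2.35 in WT IgG and at 3.12 and 2.90 in A159V tumors, and in WT anti-PD1 its 10 UMIs gave 0.07 (-2.88 to 3.01), which is too wide to be set against the others.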

How the data were processed

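scRNA-seq was run on 4 MC38 tumor samples. The authors deposited UMI counts per gene and barcode, made with Cell Ranger on mm10 with intronic reads included; their processing notes name version 5.0.1 and the file headers 7.2.0. The deposited counts precede the study's own removal of ambient RNA, doublets and barcodes under 500 genes, and none of these steps was repeated. Gates, sums over barcodes and ratios were computed with python 3.11.15, numpy 2.4.6, scipy 1.17.1 and pandas 2.3.3, and figures with matplotlib 3.10.9. CPM are UMI counts summed over the neutrophils of a library and scaled to a total of 1000000. Log2 ratios used a pseudocount of 1 CPM, and intervals cover counting error. Mitochondrial, ribosomal, hemoglobin, immunoglobulin and T-cell receptor genes were dropped, as was any gene whose CPM in the neutrophils of the higher library lay below that of its other barcodes. In each comparison the 10 genes with the highest and the 10 with the lowest ratios past 2-fold were named, beside members of the gene lists. A leading gene had at least 500 CPM in every library and was ranked by its lowest ratio over other immune barcodes. The members and lists were chosen with earlier results of these data known, and leaving out barcodes over 5000 UMIs was chosen after seeing the data. The ratio code was tested on simulated data. Alternatives changed the gate, denominator, scaling, pseudocount, minimum level and stray RNA rule. Promoters came from RefSeq (GRCm38.p6) and gene positions from GENCODE M21.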

Additional observations from a re-analysis of the deposited data

Results flagged for a closer look

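Some results had opposite signs in the WT and A159V comparisons of anti-PD1 with IgG, and none of these differences was tested, since each group is 1 library. Wfdc17 had a log2 ratio of -2.95 in WT and 1.49 in A159V, or -2.65 and 1.43 without the barcodes over 5000 UMIs. The median of the hypoxia genes was -1.10 in WT, over 3 genes, and 0.78 in A159V, over 8. Cacnb2 stood at 7.79 in WT and -2.35 in A159V, where the first value depends on the pseudocount because WT IgG held 0 UMIs. Gm17749 stood at 3.76 and -1.71, with 1 UMI in WT IgG. Phlda1 stood at 1.52 and -1.11, and at 1.71 and -0.29 without the barcodes over 5000 UMIs.

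Barcodes that met the neutrophil thresholds but held an exclusion UMI lie outside the comparisons, and they numbered 17 (IgG) and 73 (anti-PD1) in WT tumors and 39 and 45 in A159V tumors. Their median depth was 1671, 1895, 2606 and 2744 UMIs, above that of the neutrophils in each library. S100a8 stood in them at 8024, 4136, 4713 and 3254 CPM, below the neutrophils in all 4, while Ly6c2 stood at 965, 368, 721 and 474 CPM. Csf3r was at 1117, 560, 402 and 259 CPM.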

How the results depend on the processing

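With a minimum of 500 genes the fold of the neutrophil share for A159V IgG over WT IgG was 0.962, on the other side of 1, and the anti-PD1 fold in A159V was 2.44. The other 22 of 24 alternative folds stayed within the interval of the reported value. Counts of genes at least 2-fold higher and lower in A159V IgG over WT IgG were 26 and 71. They were 11 and 110 with a minimum of 500 genes, 40 and 43 without barcodes over 5000 UMIs, and 44 and 42 with means of per-cell CPM. Median-of-ratios scaling, a shift of -0.16, gave 37 higher and 46 lower. A minimum of 200 CPM gave 17 higher, and keeping stray RNA gave 118. With no minimum they were 1511 and 1290. In WT anti-PD1 over WT IgG, 200 CPM gave 132 higher and 126 lower, against 223 and 126 in the main setting, and no minimum 2515 and 1158. In A159V anti-PD1 over A159V IgG, 200 CPM gave 40 higher and 11 lower, and no minimum 2275 and 1309. There 8 were lower with 500 genes, 21 with stray RNA and 20 with per-cell means. The minimum of 20 UMIs asks for a higher CPM in a shallower library, and its part in these counts was not tested. Of 610 alternative list medians 52 moved by more than 0.3 on the log2 scale, and none that was 0.5 or more from 0 changed sign. Of 600 alternative values of named genes 0 changed sign and 591 stayed within the reported interval. WT IgG, with 79706 UMIs in 57 neutrophils, limits every comparison with it. No paired analysis was possible because each group has 1 library.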
